A study of Trichoderma reesei QM6a with 24 samples.

Results

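The gene models that lie close to the ends of the assembled contigs of *Trichoderma reesei*, a filamentous fungus that secretes cellulases, are described here across lighting, methionine and a receptor deletion. A model was a member when its start lay under 100 kb from the lowest start on its contig, or its end under 100 kb from the highest end. Distances therefore run from the outermost model of each end, and whether a contig reaches a telomere is not known from the sources used here. This rule found 450 models at 14 ends of 7 contigs, 4 of which the selection leaves out (TrG0018C, TrG0019C, TrG0022C and TrA2132C), leaving 446 members of 10879 models. The other models were 10426 farther than 100 kb from an end, 497 of them at 100 to 200 kb, and 3 on no numbered contig.

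Regions next to chromosome ends in filamentous fungi are known to evolve fast. They often carry genes that differ between strains, such as clusters for secondary metabolites and genes for secreted enzymes. Many such genes are silent in ordinary laboratory culture and come on under particular conditions, with neighbours often moving together.

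Mycelial RNA gave 24 libraries in 8 groups of 3: the deletion mutant QM6aΔ72004 and the wild type QM6a, each in constant light with or without methionine and in constant darkness with or without methionine. Methionine was L-methionine at 5 mM, and all cultures had cellulose as carbon source in minimal medium at 28 °C, for 96 h by the growth protocol or 72 h by the sample labels. The series title ties a G-protein coupled receptor to the response to methionine, and the design compares that receptor's deletion with its parent. The number of deletion clones behind the mutant is not stated in the labels. Nothing there says whether replicate libraries are separate cultures, so each p-value reflects the scatter of these libraries alone, which may be technical.

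Library totals were 13210988 to 21224989 counts. TrE0303W, the model linked to TRIREDRAFT_72004, had 0 counts in the 12 mutant libraries and 86 to 579 counts in the wild type libraries. Replicate 3 of the wild type in light stood apart: its log2 CPM correlated at 0.981 with both other libraries of its group, below all other pairs of replicates. The library numbers of light samples do not interleave with those of dark samples, so an effect of lighting and one of the library series cannot be told apart. CPM are counts scaled to library size, here after TMM normalization. A count of 3, taken as the floor in a single library, corresponded to 0.141 to 0.227 CPM. That floor was scaled by the raw library totals, without the TMM factors, and covers counting error only.

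Members were expressed at low levels, and more so the closer they lay to the end. The median level over the 24 libraries was 1.80 CPM per kb of coding length for members and 21.9 for all models on contigs. By distance the median was 0.544 CPM per kb within 25 kb, 1.05 at 25 to 50 kb, 3.20 at 50 to 75 kb and 4.44 at 75 to 100 kb. It went on rising past the limit, to 8.76 at 100 to 200 kb and 24 beyond 200 kb. A mean over 10 CPM per kb was reached by 28.5% of members, against 63.5% of all models on contigs. In RNA from whole mycelium, fewer cells expressing a gene and less RNA per cell cannot be told apart.

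No count was found in any library for 33 of the 446 members, and a further 97 were too low to test. The 316 members that passed edgeR's filter on low counts make up 70.9% of the members, against 85.6% of all models on contigs. The share with no counts was 15.7% within 25 kb, 4.13% at 25 to 50 kb, 6.32% at 50 to 75 kb and 3.48% at 75 to 100 kb, against 1.92% beyond 200 kb. The lower end of unitig_5 was the most silent, with 11 of its 17 models at 0 counts and 5 tested. It thus held 11 of the 33 members with no count, and its weight in the shares by distance was not tested. Its models were also short, with a median coding length of 420 bases. Counts of changed members below are over the 316 tested ones, which a member could join by being high in a single group.

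**Figure D1:**
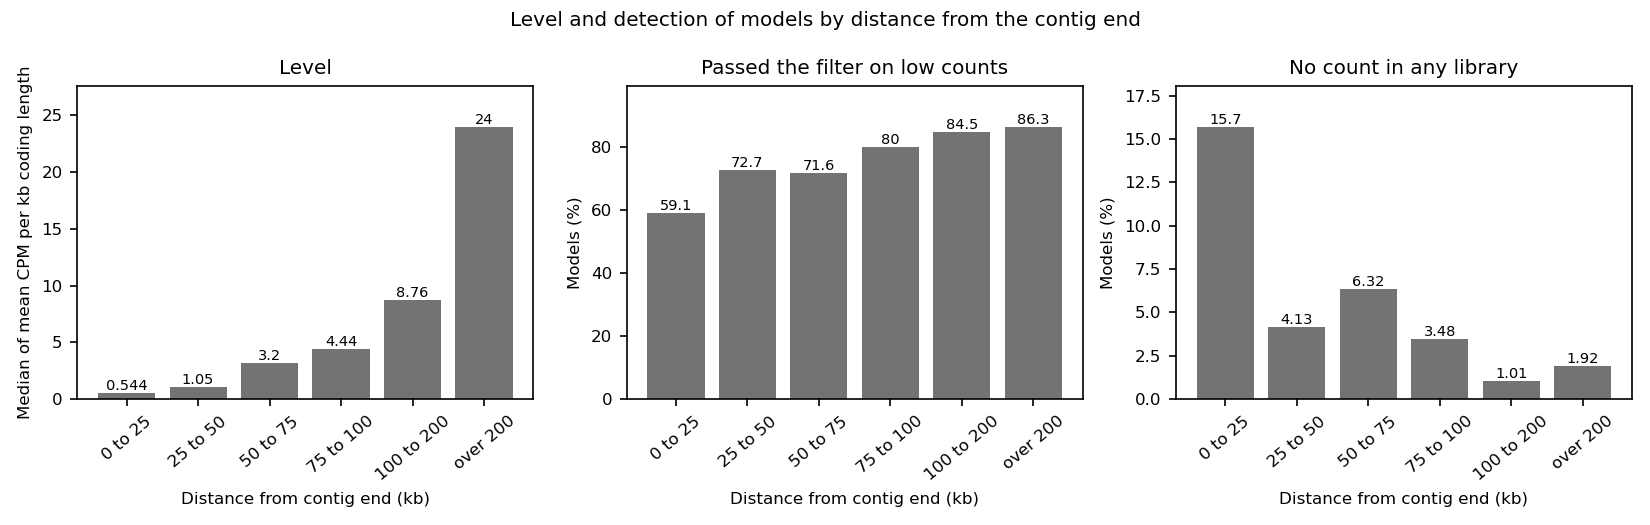
Level and detection of models by distance from the contig end (kb). Bars give the median of mean CPM per kb of coding length, the percentage of models that passed the filter on low counts, and the percentage with no count in any library. The median climbs from 0.544 CPM per kb within 25 kb to 24 beyond 200 kb.

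In shape the members resembled other models. Their median coding length was 1137 bases, against 1113 for all models on contigs, and both sets had a median of 2 exons. Models of a single exon were 22.9% of members and 20.5% of all. The median distance to the next model was 912 bases among members and 947 among all. Replicates of members scattered more than those of all tested models in each of the 8 groups. The median standard deviation (SD) of log2 CPM within a group was 0.17 to 0.33 for members, against 0.10 to 0.15 for all tested models. Wild type in light, the group of the library that stood apart, had the 0.33. The tested members' median level was 1.40 to 5.91 CPM per kb across the groups, against 26.1 to 27.7 for all tested models, and its part in the scatter was not tested.

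Methionine raised more members than it lowered, most clearly in light. In the wild type in light 172 of 316 tested members were higher with methionine and 51 lower by edgeR's quasi-likelihood test at an adjusted p under 0.05. That is 54.4% and 16.1% of them, where 35.2% of all tested models were higher and 32.2% lower. The median log2 fold change was 0.91 for members and 0.02 for all tested models. Of these, 143 rose and 28 fell at least 2-fold, where 1713 and 964 of all 9308 tested models did. At least 16-fold, 30 members rose and 5 fell, where 249 and 114 of all tested models did.

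In darkness the wild type's members leaned the same way but less. There 150 were higher and 89 lower with methionine (47.5% and 28.2%), where 38.7% and 36.9% of all tested models were. Their median log2 fold change was 0.57, against 0.03 for all tested models. Changes of at least 16-fold came to 36 upward and 17 downward, where all tested models leaned upward about as much, with 376 and 154. The mutant gave 187 members higher and 49 lower in light (59.2% and 15.5%), against 37.4% and 34.3% of all tested models, with a median of 1.21. In darkness the mutant had 164 higher and 83 lower (51.9% and 26.3%), against 39.6% and 37.7% of all tested models (77.3% in either direction), with a median of 0.75.

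This lean did not stop at 100 kb. In the wild type in light 63.2% of tested models within 25 kb were higher with methionine, 42.0% at 25 to 50 kb, 52.9% at 50 to 75 kb and 60.9% at 75 to 100 kb. At 100 to 200 kb 50.5% were higher and 21.7% lower, and beyond 200 kb 33.8% and 33.3%. In darkness the models within 25 kb showed no lean (36.8% higher, 35.3% lower, median 0.03), while those at 100 to 200 kb did (54.5% and 26.2%, median 0.69). The differences between these stretches were not tested.

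The ends differed among themselves. In light the wild type's higher calls outnumbered its lower calls at all 14 ends, from 17 higher and 0 lower of 20 at the upper end of unitig_2 and 14 and 0 of 19 at the upper end of unitig_0, to 11 and 10 of 26 at the upper end of unitig_5. In darkness this held at 11 ends, and the lower end of unitig_4 went the other way, with 7 higher and 14 lower of 28. The lower end of unitig_3 was high in both, with 18 higher and 3 lower of 30 in light and 20 and 4 in darkness. Of the outermost tested model at each of the 14 ends, 9 were higher with methionine and 2 lower in light, and 5 and 5 in darkness. These models lay at most 13.9 kb in, save on the lower ends of unitig_6 (TrG0005W, 23.0 kb) and unitig_5 (TrF0012W, 87.4 kb).

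**Figure D2:**
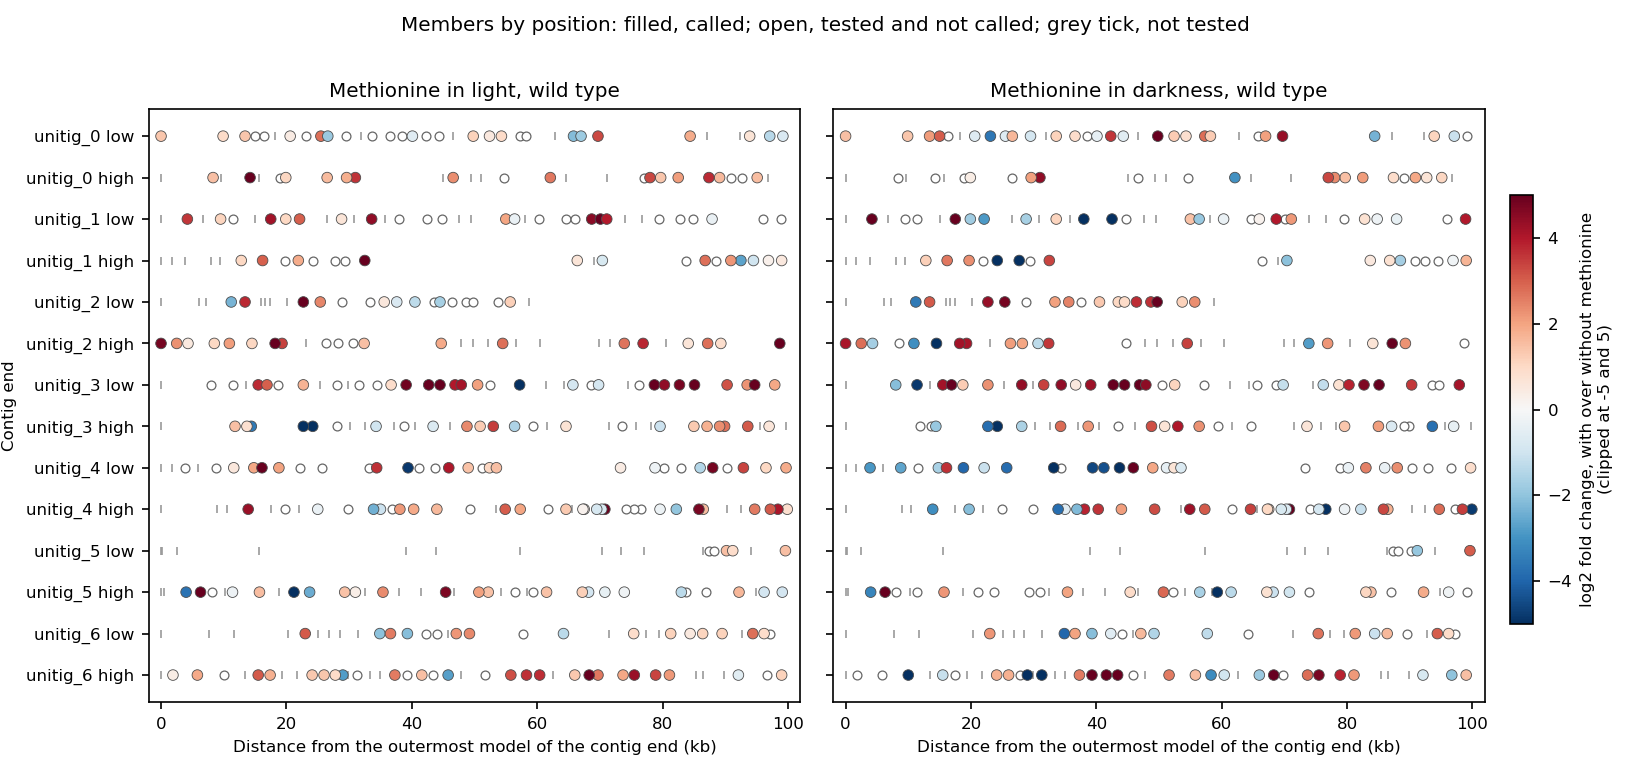
Tested and untested members by distance from the outermost model of their contig end (kb), one line per end, for methionine in the wild type under light and under darkness. Colour gives the log2 fold change, with over without methionine, clipped at -5 and 5; open circles were tested and not called and grey ticks were not tested. Dark red neighbours stand together on the lower end of unitig_3, and blue ones on the lower end of unitig_4 in darkness.

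The members raised most in both lightings stood side by side on the lower end of unitig_3. TrD0016C (TRIREDRAFT_66544, unitig_3, 55136 to 55987, a single exon) had 150, 131 and 130 CPM in the wild type in light with methionine, against 0.341, 0.538 and 1.56 CPM without it. In darkness it had 131, 160 and 173 CPM with methionine, against 0.950, 0.943 and 0.675 CPM without. Members named for large changes were chosen to have groups that do not overlap, so that feature adds nothing to their tests. All 6 libraries with methionine stood far above all 6 without it, whatever the lighting. The log2 fold change was 7.47 in light (SE 0.32, edgeR adjusted p = 5.11e-14; 8.25 with replicate 3 of light left out) and 7.50 in darkness (SE 0.32, edgeR adjusted p = 2.57e-14). In the mutant it was 8.66 in light and 7.83 in darkness.

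Its neighbours moved with it. From TrD0015C to TrD0020C (unitig_3, 51579 to 64022), all 6 models rose at least 2-fold with methionine in light, and the first 5 of them in darkness. Summed over the 6, the wild type had 199 ± 9.56 CPM in light with methionine, against 3.47 ± 0.471 without it (SD, n = 3). Darkness gave 251 ± 36.7 CPM with methionine, against 6.63 ± 0.887 without. The mutant's sums were 253 ± 57.2 CPM in light with methionine, against 3.51 ± 0.167 without, and 252 ± 39.7 in darkness with methionine, against 5.95 ± 0.8 without. TrD0017C, next to TrD0016C, rose by 6.01 in light and 5.73 in darkness on the log2 scale (SE 0.32 and 0.29). The last of the 6, TrD0020C, rose in light (2.05) and not in darkness (-0.47, edgeR adjusted p = 0.15).

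Farther in on the same end, from TrD0030C to TrD0037W (unitig_3, 91164 to 112080), 8 models rose at least 2-fold in the wild type in light. TrD0033W (TRIREDRAFT_80654) had 86.1, 98.1 and 93.3 CPM in light with methionine, against 1.48, 1.34 and 3.04 without, and 146, 184 and 166 in darkness with methionine, against 2.58, 3.70 and 1.66 without. Its groups with and without methionine did not overlap in either lighting, which the rule for naming it required in darkness (log2 fold change 5.98 in darkness, SE 0.22, edgeR adjusted p = 1.81e-15). TrD0030C (TRIREDRAFT_66766), the first of the 8, had 36.9, 17.4 and 44.4 CPM in light with methionine, against 0.171, 0.538 and 0.566 without. In darkness it had 38.0, 51.5 and 71.9 CPM with methionine, against 35.8, 22.3 and 37.6 without. The rise was 6.28 on the log2 scale in light (SE 0.49) and 0.75 in darkness (SE 0.30, edgeR adjusted p = 0.0276).

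Another stretch of the same end, from TrD0005W to TrD0013C (unitig_3, 27999 to 47611), rose as a whole in darkness. Its 7 models summed to 92.4 ± 20 CPM in the wild type in darkness with methionine, against 6.29 ± 3.08 without. In light the sums were 35.3 ± 2.37 CPM with methionine, against 8.63 ± 2.40 without. TrD0010W (TRIREDRAFT_66534) carried much of the difference between the lightings, with 0.0654, 0.280 and 0.399 CPM in light with methionine, against 41.5, 66.1 and 57.6 in darkness with methionine. These groups lay far apart (log2 fold change -7.72 for light over darkness, SE 0.47, edgeR adjusted p = 6.40e-11).

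With methionine against without, such runs held a larger share of members than of all tested models. A run was taken as at least 4 consecutive tested members called in the same direction and changed at least 2-fold. For the wild type in light 11 runs, all higher, held 62 members, 19.6% of those tested, where runs over the whole table held 3.39% of tested models. In darkness 12 runs, 10 higher and 2 lower, held 55 members (17.4%, against 5.79%). The mutant had 12 runs in each lighting, all higher, with 75 members in light (23.7%, against 4.80%) and 58 in darkness (18.4%, against 6.25%). Members also rose at least 2-fold more often. In the wild type in light 143 of 316 did so with methionine, where 1713 of 9308 tested models did. How far the runs follow from these shares, or how often neighbouring models of like level would form them, was not tested.

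On the upper end of unitig_4 the 6 models from TrE1289C to TrE1295W (4099403 to 4120148) rose in darkness, where the wild type's sums were 252, 306 and 279 CPM with methionine, against 15.5, 17.8 and 14.8 without. In light the sums were 179, 198 and 183 CPM with methionine, against 22.1, 20.9 and 39.7 without. Every library with methionine exceeded every one without it.

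Among the longest was the upper end of unitig_6, where the 10 models from TrG1175W to TrG1185W (3734768 to 3761017) rose in light in both genotypes. The wild type's sums were 270 ± 10.5 CPM in light with methionine, against 54.1 ± 2.76 without, and 294 ± 18.7 in darkness with methionine, against 158 ± 9.27 without. On the upper end of unitig_0, 14 tested members from TrA2124W to TrA2143C (6741396 to 6813402, 72.0 kb) rose at least 2-fold in the mutant in light, as consecutive members. The left-out TrA2132C lies among them, and with all tested models in the order this stretch is no unbroken run, the longest in that comparison being 13 models. They summed to 364 ± 12.4 CPM with methionine in the mutant in light, against 86.4 ± 13.0 without. The wild type's sums in light were 325, 309 and 311 CPM with methionine, against 87.2, 92.8 and 208 without. Replicate 3 was again the high one of the last 3, and the mean without it was 90.0 CPM.

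**Figure D3:**
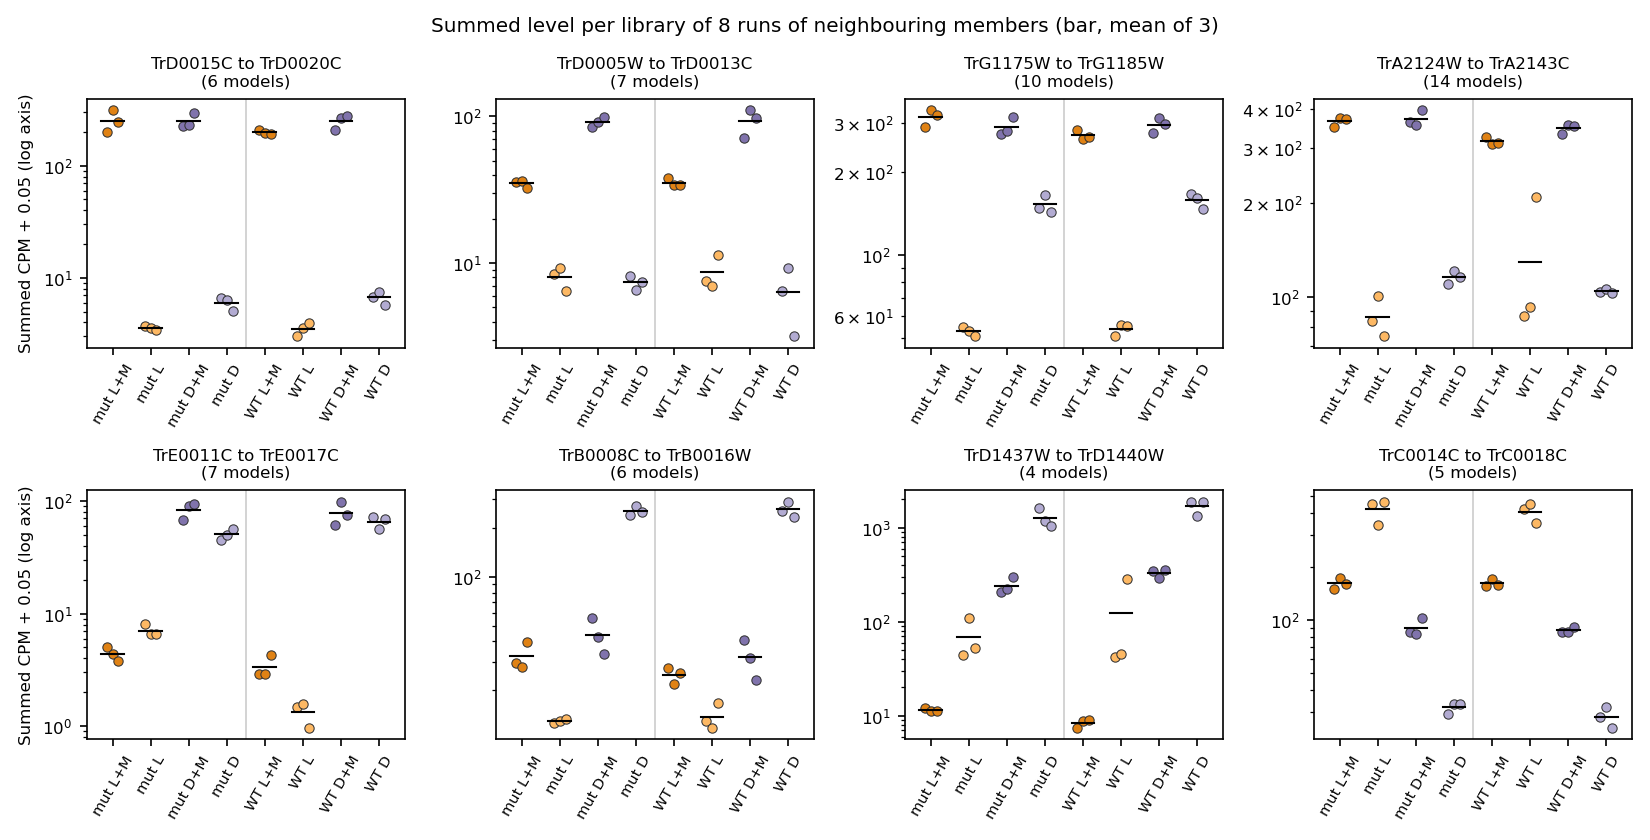
Summed CPM per library (log axis) of 8 runs of neighbouring members in the 8 groups, mutant (mut) left and wild type (WT) right; L is light, D darkness, M methionine, and bars are means of 3 libraries. The sums of the runs of unitig_3 (TrD0015C to TrD0020C) and unitig_6 rise with methionine, whereas those of TrB0008C to TrB0016W and TrD1437W to TrD1440W are highest in darkness without it.

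The outermost model of an end could itself be among the strongest. TrC1580C, the last model of the upper end of unitig_2 (5307173 to 5309180), had 25.2, 27.7 and 20.8 CPM in the wild type in light with methionine, against 0.626, 0.538 and 1.63 without. In darkness it had 41.1, 60.5 and 49.3 CPM with methionine, against 3.19, 3.19 and 2.27 without. Every library with methionine lay above every library without it (log2 fold change 4.78 in light, SE 0.31, edgeR adjusted p = 2.87e-11). TrA0001W, the first model of unitig_0 with a coding length of 9003 bases, had 65.3, 66.4 and 75.3 CPM in darkness with methionine, against 26.9, 21.5 and 25.3 without (1.49). TrA0028C (TRIREDRAFT_60458, unitig_0, 76952 to 83617), a long model farther in on that end, had 42.8, 65.2 and 57 CPM in darkness with methionine, against 2.51, 2.47 and 3.07 without (4.35, SE 0.18, edgeR adjusted p = 1.04e-14).

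Not all outermost models were of this kind. TrE1304C (TRIREDRAFT_103041), the outermost tested model of the upper end of unitig_4 at 13.9 kb, had 1.37, 1.33 and 1.26 CPM in light with methionine, against 0, 0.108 and 0.0707 without. In darkness it had 1.09, 0.847 and 0.873 CPM with methionine, against 9.22, 7.55 and 7.24 without. Methionine thus went with a higher level in light and a lower one in darkness (-3.09 in darkness), and none of the groups overlapped within a lighting. TrG1208C, 1.9 kb from the upper end of unitig_6, moved little: its 24 values ran from 12.7 to 23.6 CPM, with a rise of 0.37 with methionine in light (SE 0.12).

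Members lowered by methionine were fewer. In light the largest falls included that of TrF1202W (log2 fold change -7.40 in the wild type), which was low in darkness and is described further below. In darkness the largest falls were of genes high there without methionine. TrG1206C (unitig_6, 3805219 to 3806829, 10 kb from the end) had 5.68, 2.91 and 5.45 CPM in the wild type in darkness with methionine, against 4200, 4830 and 3650 without. In light it stood at 8.77, 3.09 and 12.4 CPM with methionine and 0.455, 1.34 and 10.2 without. Darkness without methionine was thus the sole group in which the wild type expressed it highly (log2 fold change of methionine in darkness -9.82, SE 0.84, edgeR adjusted p = 1.31e-09). The mutant did the same, with 3.23, 1.38 and 2.12 CPM in darkness with methionine, against 4700, 5830 and 5920 without.

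TrG1195C, on the same end at 31.3 kb, had the same shape. It had 2.06, 0.9 and 1.69 CPM in the wild type in darkness with methionine, against 1470, 1710 and 1380 without. TrE1278W (unitig_4, 4080897 to 4081632) had 1 count over the 3 libraries with methionine, against 67.8, 28.7 and 59.3 CPM in darkness without it, a ratio of 2830 with a 95% counting interval of 508 to 112000. In light none of its libraries passed 0.171 CPM.

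Among members with a known name, *cip2* belongs to this class. TrB1968W (TRIREDRAFT_123940, unitig_1, 6192320 to 6193759) is *cip2*, which encodes a glucuronoyl esterase with a cellulose-binding module. It had 0.363, 0.212 and 0.164 CPM in the wild type in darkness with methionine, against 84.6, 147 and 84.2 without. Its neighbour TrB1967C (TRIREDRAFT_69276) had 0.0605, 0.0529 and 0.164 CPM with methionine, against 61.0, 89.8 and 54.0 without. In light no library of either gene passed 0.848 CPM in any wild type group. In the mutant too, both were high in darkness without methionine alone, at 142, 165 and 172 CPM for *cip2* and 75, 94.1 and 96.4 CPM for TrB1967C.

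The chitinase genes with a symbol at these ends encode family 18 enzymes, which cut chitin, a structural polymer of the fungal cell wall. *chi18-9* (TrF1201C, TRIREDRAFT_72339, unitig_5, 3951967 to 3956899) had 38.6, 39.5 and 44.1 CPM in the wild type in light with methionine, against 254, 279 and 153 without. In darkness it had 25.9, 22.3 and 32.1 CPM with methionine and 21.5, 24.1 and 21.4 without. Light without methionine was its high group, and the fall with methionine passed the test there (-2.49, SE 0.20, edgeR adjusted p = 9.91e-10) and not in darkness (0.26, edgeR adjusted p = 0.25).

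The model beside it, TrF1202W (unitig_5, 3957575 to 3959371), kept to the same group more strictly. It had 0.131, 0.280 and 0.114 CPM in the wild type in light with methionine, against 35.1, 35.5 and 18.9 without. In darkness the wild type gave at most 0.382 CPM, and without methionine 1 count over 3 libraries, a ratio of 1380 for light over darkness with a counting interval of 247 to 54400. *chi18-15* (TrA0008W, TRIREDRAFT_59791) was low everywhere, with 2.92, 3.12 and 1.66 CPM in darkness without methionine and at most 1.13 CPM in the other wild type libraries. *chi18-17* (TrD0023W, TRIREDRAFT_110317) was too low to test, with at most 0.487 CPM in any library.

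**Figure D4:**
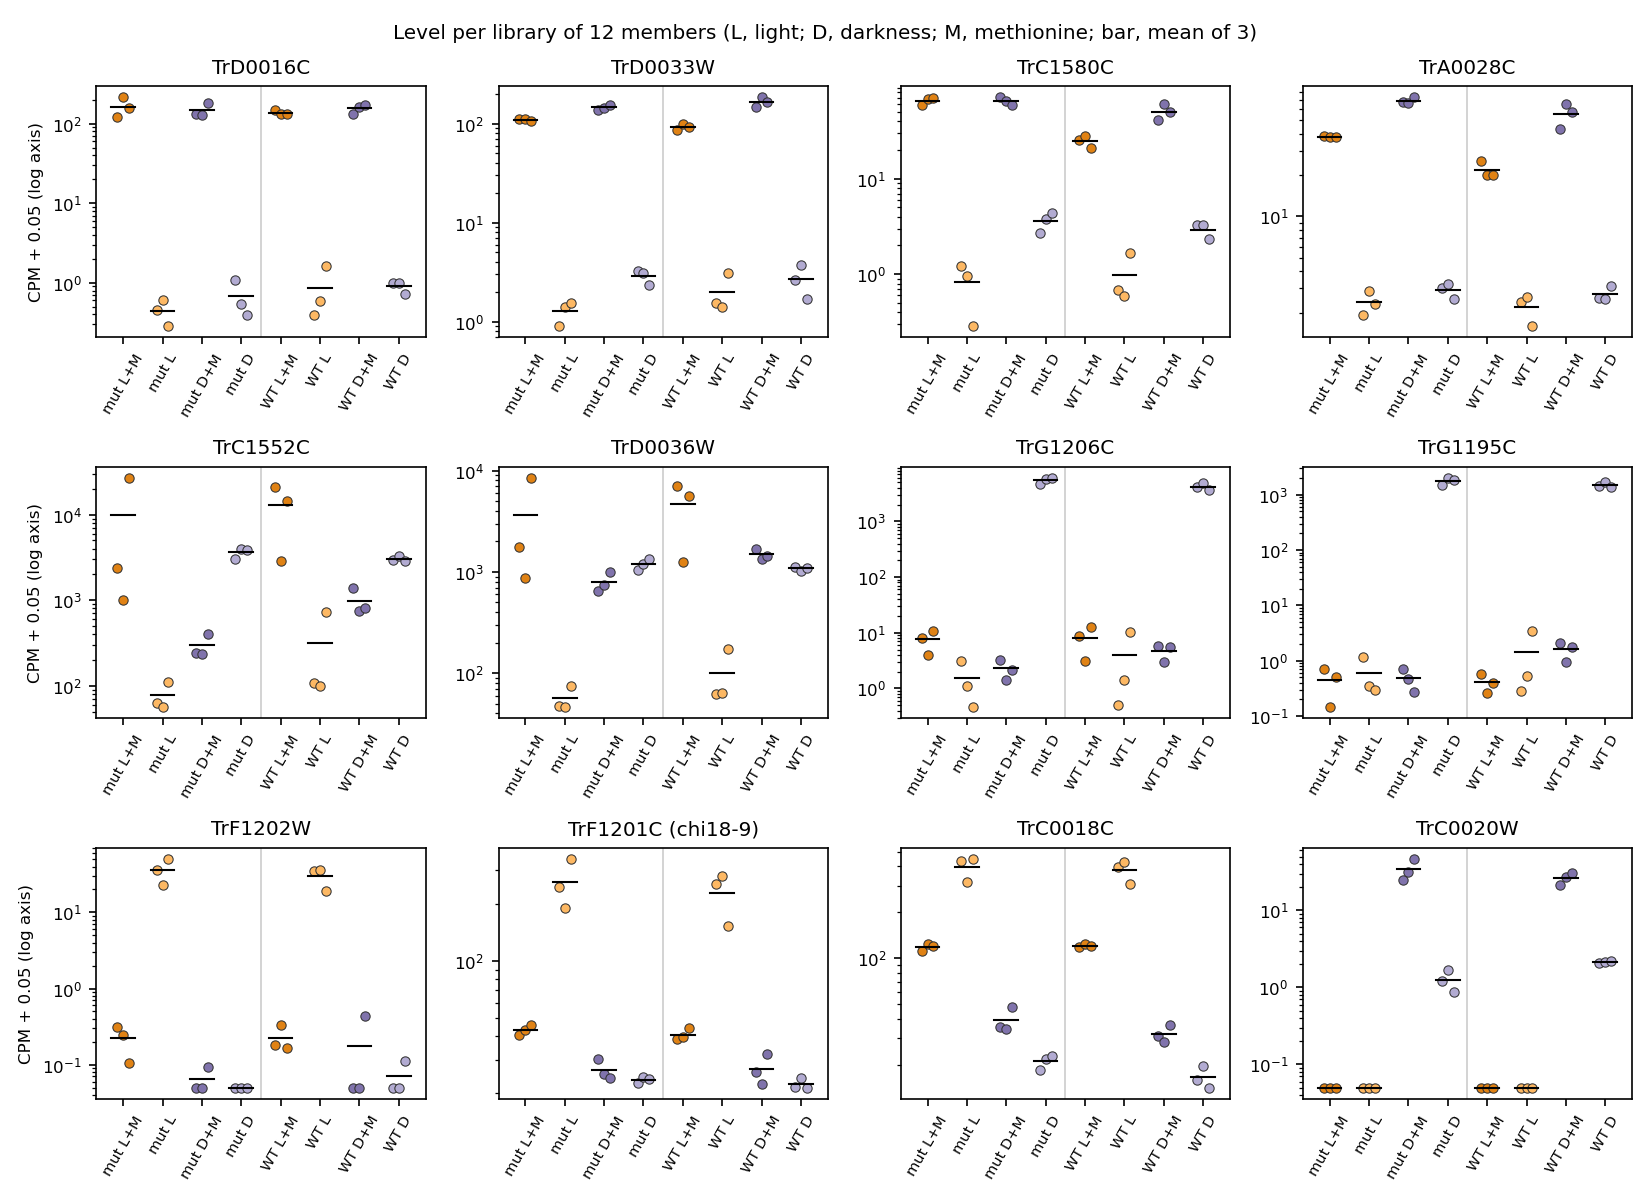
CPM per library, plus 0.05, on log axes for 12 members in the 8 groups, mutant (mut) left and wild type (WT) right; L is light, D darkness, M methionine, and bars are means of 3 libraries. Methionine separates the groups for TrD0016C, TrD0033W, TrC1580C and TrA0028C, and TrG1206C and TrG1195C are high in darkness without methionine in both genotypes.

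Whether the response to methionine differed between the lightings was tested as an interaction, the change in light minus that in darkness. In the wild type it passed for 160 members (50.6%, where 49.6% of all tested models did), 93 positive and 67 negative. All tested models split into 24.3% positive and 25.3% negative. The mutant gave 150 members, 89 positive and 61 negative, where 45.7% of all tested models passed, 22.4% positive and 23.3% negative. Within 25 kb the wild type's split was 36.8% positive and 8.82% negative, and the mutant's 33.8% and 7.35%. Farther in the wild type had 26.1% and 21.6% at 25 to 50 kb, 29.4% and 27.9% at 50 to 75 kb and 27.2% and 25% at 75 to 100 kb. The mutant at 25 to 50 kb had 21.6% positive and 23.9% negative. Counted by direction, 107 members (33.9%, against 25.1% of all tested models) were higher with methionine in both lightings and 26 (8.23%, against 23.2%) lower in both. Another 28 (8.86%, against 3.96%) were lower in darkness and higher in light, and 8 (2.53%, against 2.92%) the reverse. Ranked by group mean in the wild type, 21.8% of tested members were highest in light with methionine, 14.9% in light, 33.5% in darkness with methionine and 29.7% in darkness. For all tested models these shares were 21.8%, 22.1%, 24% and 32.1%.

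One boundary between neighbours, picked after its values were seen, shows how sharply such patterns can change along an end. TrE0016W (TRIREDRAFT_71008, unitig_4, 44679 to 46592) had 0, 0 and 0.164 CPM in the wild type in darkness with methionine, against 17.8, 13.4 and 18.3 without. TrE0017C, which begins at 46880, had 53.8, 88.1 and 65.1 CPM with methionine, against 1.76, 2.25 and 0.368 without. Both were near 0 in the light libraries of the wild type, at most 0.108 and 0.628 CPM.

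More members were lower in light than higher, and lighting cannot be told apart from the library series here. Without methionine 76 of 316 tested members of the wild type were higher in light and 143 lower (24.1% and 45.3%), where 32.5% and 32.2% of all tested models were, 64.8% in either direction. The median log2 fold change of light over darkness was -0.44 for members and 0.00 for all tested models. Changes of at least 16-fold came to 6 upward and 47 downward, where all tested models, which also had more downward, had 119 and 280. In the mutant 82 were higher and 144 lower (25.9% and 45.6%), where 31.8% and 30.6% of all were. Of the members, 66 were higher in light in both genotypes and 130 lower in both (20.9% and 41.1%), where 26.2% and 26.8% of all tested models were. Among members 1 was lower in the wild type and higher in the mutant, where 5 of all tested models were, and 5 the reverse.

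The lean toward darkness was strongest in the outermost 25 kb. There 14.7% of the wild type's tested models were higher in light and 58.8% lower, with a median of -1.10. The shares lower were 40.9% at 25 to 50 kb, 45.6% at 50 to 75 kb, 39.1% at 75 to 100 kb and 37.1% at 100 to 200 kb, against 31.5% beyond 200 kb. Lower calls outnumbered higher ones at 10 of the 14 ends in each genotype. At the lower end of unitig_4, 26 of 28 tested members were lower in light and none higher, in both genotypes. The upper end of unitig_4 went the other way in the wild type, with 13 higher and 7 lower of 31.

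With methionine fewer members separated light from darkness, and the same held for all tested models. The wild type had 38 of 316 higher in light and 90 lower, where 18.2% and 20.9% of all tested models were. In either direction 39.1% of all tested models were called, against 64.8% without methionine. In the mutant 52 were higher and 80 lower, where 19.0% and 21.7% of all were. There 40.7% of all were called in either direction, against 62.4% without methionine. Members called in neither genotype were 48.4% of those tested, near the 51.1% of all tested models. No run of 4 or more members was left in either genotype, where 10 runs in the wild type and 11 in the mutant were found without methionine. Over all tested models runs held 0.634% of the wild type's models with methionine, against 2.79% without it.

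**Figure D5:**
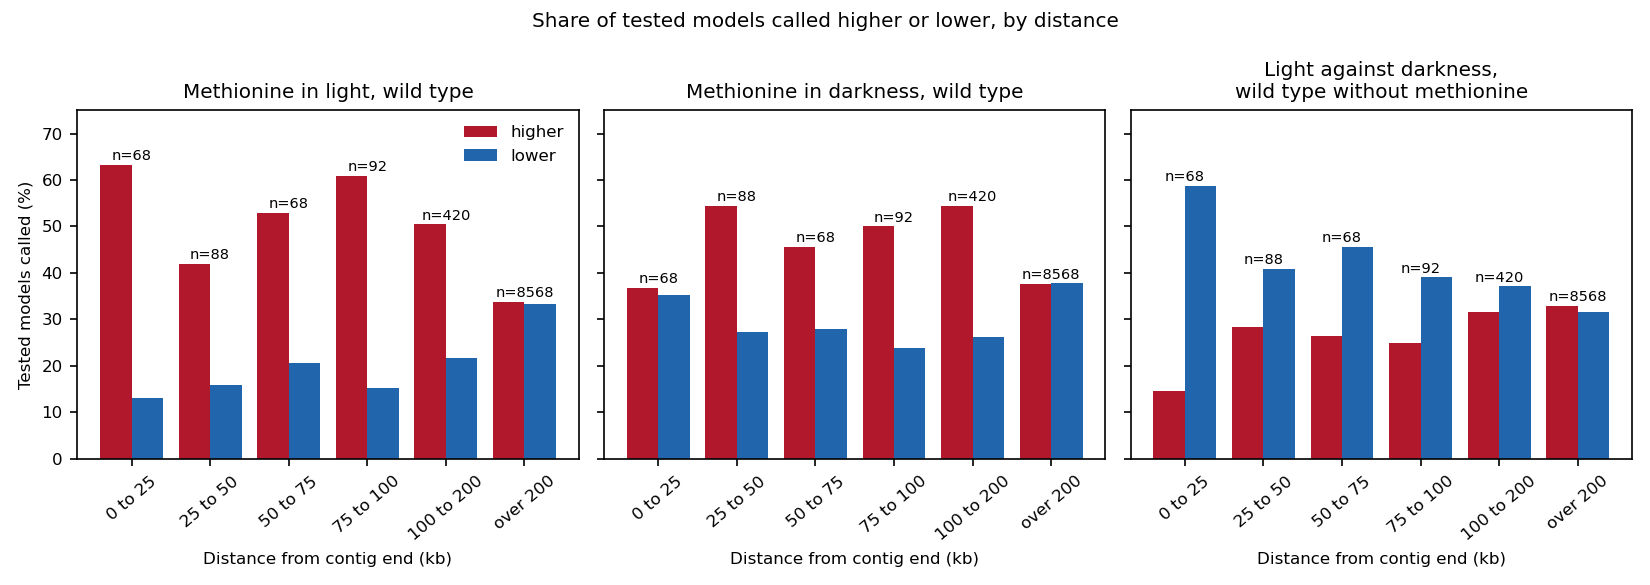
Percentage of tested models called higher (red) or lower (blue) by edgeR at an adjusted p under 0.05, by distance from the contig end (kb), for 3 comparisons in the wild type; n is the number of tested models. Within 25 kb 63.2% were higher with methionine in light and 58.8% were lower in light than in darkness.

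Runs lower in light held some of the largest changes. From TrB0008C to TrB0016W (unitig_1, 20534 to 44725) 6 models summed to 13.7 ± 2.59 CPM in the wild type in light, against 260 ± 28.0 in darkness. Its last 2 models, TrB0015C (TRIREDRAFT_69944) and TrB0016W, averaged 67.3 ± 15.9 and 78.0 ± 21.0 CPM in darkness (SD, n = 3), while no wild type library of another group passed 0.9 CPM for either. The 7 models from TrE0011C to TrE0017C (unitig_4, 26699 to 48766) summed to 1.28 ± 0.318 CPM in light, against 65.7 ± 8.30 in darkness, with a median log2 fold change of -5.64. In the mutant they summed to 7.01 ± 0.902 CPM in light, against 50.4 ± 5.56 in darkness, with a median of -2.53. From TrD1437W to TrD1440W (unitig_3, 4524983 to 4540107) 4 models summed to 42.5, 45.6 and 286 CPM in the wild type in light, against 1890, 1330 and 1870 in darkness. Replicate 3 of light was again the high one, and the mean without it was 44.1 CPM.

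In that last run methionine in light went further. TrD1438C had no count in the 3 wild type libraries in light with methionine, against 4.95, 5.16 and 38.1 CPM without, so that it was at least 225-fold lower (floor of 3 counts over the group), or at least 79.4-fold with replicate 3 of light left out, a bound added after the data were seen. TrD1439W had 0, 0.491 and 0 CPM with methionine, against 14.1, 15.7 and 24.7 without. The fitted log2 fold change of TrD1438C, which is no bound, was -11.09 with all libraries and -9.47 when replicate 3 of light was left out.

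The 2 runs higher in light lay on the lower ends of unitig_2 and unitig_0. From TrC0014C to TrC0018C (unitig_2, 38690 to 48966) 5 models summed to 410 ± 52.8 CPM in the wild type in light, against 28.2 ± 3.83 in darkness. TrC0018C made up most of it, with 399, 430 and 306 CPM in light, against 15.9, 19.7 and 14.2 in darkness (4.51, SE 0.18, edgeR adjusted p = 1.49e-14). With methionine it was at 118, 124 and 120 CPM in light, against 30.9, 28.5 and 36.6 in darkness. TrA0027W (unitig_0, 74252 to 76803) had 1330, 1220 and 2830 CPM in light, against 50.7, 116 and 39.5 in darkness (4.70, SE 0.63; 5.31 without replicate 2 of darkness). Without methionine the light and dark groups of both genes did not overlap, as the rule for naming them required.

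Some models of the next run inward from TrC0018C, a run raised by methionine in darkness, did the opposite. The run as a whole did not. Its 5 models, TrC0019C to TrC0023C, summed to 33.6 ± 1.41 CPM in the wild type in light without methionine, against 14.6 ± 1.49 in darkness. TrC0020W (TRIREDRAFT_112563, unitig_2, 51772 to 52641) had 0 counts in all 6 wild type light libraries. In darkness it had 21.2, 26.8 and 30.5 CPM with methionine, against 2.03, 2.10 and 2.15 without. With methionine it was at least 413-fold lower in light than in darkness in the wild type, and at least 707-fold in the mutant. TrC0019C (TRIREDRAFT_112564) and TrC0021C on either side shared this, with 9.25 to 9.98 and 6.83 to 8.62 CPM in the wild type in darkness with methionine, against at most 0.114 CPM in its light libraries.

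Other members were named for being higher in light than in darkness with methionine. TrE1269C (TRIREDRAFT_103015, unitig_4, 4058695 to 4059786) had 80.9, 78.5 and 78.3 CPM in light with methionine, against 7.32, 6.35 and 7.20 in darkness with methionine (3.51, SE 0.23, edgeR adjusted p = 2.35e-10). It was also raised by methionine in both lightings (4.10 in light and 3.46 in darkness). TrE1298C, a short model of coding length 228, had 27.3, 22.1 and 23.9 CPM in light with methionine, against 1.09, 1.38 and 1.75 in darkness with methionine (4.11, SE 0.34).

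As a group, the members took a small and variable share of the reads. They are 4.10% of the models and took 0.815, 0.821 and 1.13% of counts in the wild type in light and 1.79, 1.85 and 1.69% in darkness. In light with methionine the shares were 3.94, 1.45 and 3.12%, and in darkness with methionine 1.39, 1.35 and 1.37%. In the mutant in light with methionine they were 1.51, 1.29 and 4.71%, a mean of 2.50% that was 1.40% without replicate 3. The mutant's other groups held 0.715 to 0.844% in light, 1.17 to 1.32% in darkness with methionine and 1.80 to 1.95% in darkness. Keeping in the 4 set-aside models would give 3.52 ± 0.167% in the mutant and 3.26 ± 0.186% in the wild type in darkness (SD, n = 3).

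A pair of members made this scatter. TrC1552C (unitig_2, 5208063 to 5210456, 98.7 kb from the end) had 21000, 2880 and 14500 CPM in the wild type in light with methionine, against 109, 99.2 and 731 without. In the mutant it had 2370, 1010 and 26500 CPM in light with methionine, against 63.5, 57.0 and 111 without. The groups did not overlap, which the rule for naming it required in the mutant. Libraries of a group differed widely (log2 fold change 5.35 in the wild type, SE 1.05, edgeR adjusted p = 0.000140). In the mutant it was 7.01 (SE 1.13), 5.84 with the replicate number as a block and 4.43 without replicate 3 with methionine.

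TrD0036W (unitig_3, 107177 to 109349) was high in the same libraries, at 6980, 1260 and 5670 CPM in the wild type in light with methionine, against 62.6, 63.2 and 175 without. In darkness it was steady, with 1700, 1330 and 1430 CPM with methionine and 1110, 1030 and 1100 without. Leaving both models out gave shares of 0.989 ± 0.0179% in the wild type in light with methionine, against 0.884 ± 0.141% without, and 1.10 ± 0.0381% in darkness with methionine, against 1.39 ± 0.0685% without (SD, n = 3). TrF1176C (unitig_5, 3881908 to 3884427) was the steady one of the abundant members, with 585 to 1380 CPM over the 24 libraries.

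The receptor deletion changed few members, and those that edgeR called with all libraries in the fit were higher in the mutant. DESeq2, as given below, also called members lower in light without methionine. In light with methionine 6 of 316 tested members passed by edgeR, all higher in the mutant. Of all tested models 0.344% passed there, 0.301% higher and 0.043% lower. In darkness with methionine 5 members passed, all higher, where 0.537% of all tested models did, 0.483% higher and 0.0537% lower. In light without methionine 2 passed, both higher, where 0.15% of all did, 0.0537% higher and 0.0967% lower. In darkness without methionine none of the members passed by edgeR, where 0.204% of all tested models did, 0.0322% higher and 0.172% lower. There 42 members had an unadjusted p under 0.05, where 1311 of all 9308 tested models did, and DESeq2 called 3 members, where it called 89 models higher and 68 lower in all.

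TrC1580C, the outermost model of unitig_2, differed most among those with methionine in light. It had 58.6, 68.5 and 70.2 CPM in the mutant, against 25.2, 27.7 and 20.8 in the wild type (1.42, SE 0.21, edgeR adjusted p = 0.00156). TrA0028C (TRIREDRAFT_60458, coding length 6441) had 38.2, 37.7 and 37.8 CPM in the mutant, against 25.4, 20.1 and 19.9 in the wild type (0.80, SE 0.14, edgeR adjusted p = 0.0115). That call did not survive the loss of wild type replicate 2 or 3 (edgeR adjusted p = 0.099 and 0.0911), nor a fit of only the groups compared (0.0807), under which 2 members passed. The others were TrE0022W (0.70), TrE0020C (0.58), TrG1178C (0.51) and TrE1276C (0.47), named because the count is small.

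In darkness with methionine TrA0009W (TRIREDRAFT_60518) had 35.3, 40.2 and 55.8 CPM in the mutant, against 22.6, 22.0 and 26.1 in the wild type (0.90, SE 0.19, edgeR adjusted p = 0.0259). TrE0010C had 11.3, 10.5 and 11.7 CPM in the mutant, against 6.65, 6.03 and 6.65 in the wild type (0.80, SE 0.15, edgeR adjusted p = 0.0138). Both calls failed when wild type replicate 1 or 2 or mutant replicate 3 was left out (edgeR adjusted p from 0.0504 to 0.229), and that of TrA0009W also with mutant replicate 2 left out. A fit of only the groups compared called none of the 5 (edgeR adjusted p = 0.103 for TrA0009W and 0.0656 for TrE0010C). TrE1288C (0.72), TrB0021C (0.59) and TrA0001W (0.57) made up the 5.

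In light without methionine both calls lay in the dark-expressed run of unitig_4, and they were named after their values were seen. TrE0013C (TRIREDRAFT_71010) had 1.21, 1.04 and 0.781 CPM in the mutant, against 0.171, 0.108 and 0.141 in the wild type (2.81, SE 0.46, edgeR adjusted p = 0.0071). TrE0011C had 2.33, 1.89 and 2.64 CPM in the mutant, against 0.455, 0.538 and 0.424 in the wild type (2.25, SE 0.31, edgeR adjusted p = 0.00126). Every mutant library lay above every wild type one for both. In darkness the same genes were at 5.36 to 6.90 and 15.8 to 24.5 CPM in the mutant, against 6.53 to 8.07 and 20.9 to 25.8 in the wild type, and were not called.

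The count of 2 in light depended on single libraries and on the fit: it was 0 with only the 2 groups compared. Leaving out wild type replicate 1 gave 14, wild type replicate 2 gave 12 and mutant replicate 2 gave 15, whereas leaving out wild type replicate 3 or mutant replicate 1 gave 1. Those sets had 5, 4 and 5 members higher and 9, 8 and 10 lower, and DESeq2 on all libraries called 16, 6 higher and 10 lower. Calls over all tested models moved likewise: leaving out those 3 libraries gave 29, 21 and 33 higher and 234, 253 and 279 lower, and DESeq2 gave 38 higher and 220 lower, where edgeR with all libraries gave 5 and 9. Whether the response to methionine differed between genotypes was tested as an interaction. None of the 316 members passed in light or in darkness by edgeR, where 0.0322% and 0.0430% of all tested models did. At an unadjusted p under 0.05 there were 59 members in light and 37 in darkness, where 1248 and 695 of all 9308 tested models passed. DESeq2 called 5 members in light, where it called 44 models positive and 25 negative in all, and 1 in darkness, where it called 30 and 1. Of the members called in both genotypes, 165 were higher and 39 lower with methionine in light (52.2% and 12.3% of those tested), where 31.7% and 28.7% of all tested models were. In darkness 145 were higher and 76 lower (45.9% and 24.1%), where 35.9% and 34.2% of all were. Opposite calls were 0 in light and 2 in darkness, against 2 and 7 among all tested models.

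Models next to the 100 kb limit differed among themselves as members did. Just inside, TrE1268W (99930 bases from the end) had 2.32 ± 0.362 CPM in the wild type in darkness with methionine, against 64.7 ± 18.8 without, and TrD1409C (99737 bases) was too low to test. Just outside, TrA0036C (100057 bases) had 50.7 ± 3.80 CPM with methionine, against 55.7 ± 2.24 without, and TrG0035W (100187 bases) had 3.70 ± 0.370, against 1.86 ± 0.414.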

How the data were processed

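The values are raw counts per gene model as the authors deposited them. Per the file headers they came from featureCounts 2.0.1, run on paired reads with reverse strandedness, after alignment listed as HISAT2 2.2.1 in the submitters' processing notes. Trimming and the genome build are not given in the sources used here, and coordinates are those of the table. No normalization was applied before deposit, as all values are whole numbers. Deposited lengths are mostly multiples of 3 (94.7%) and were taken as coding lengths.

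Tests used edgeR 4.0.16 (R 4.3.3) on these counts (TMM, factors 0.877 to 1.114; filter with minimum count 10; quasi-likelihood F-test with all 8 groups as one factor; Benjamini-Hochberg over 9308 models; threshold 0.05), checked on simulated data. The common coefficient of biological variation was 0.133. A fold against 0 counts uses a floor of 3 counts over the group, and one against 1 to 3 counts has a 95% counting interval. Interactions are differences of log2 fold changes, those of methionine with deletion added after the data were seen.

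Locus tags and symbols came from a RefSeq table of QM6a (assembly v2.0) by identical spans with at least 3 identical neighbours within 6 on each side. This linked 218 members (48.9%), 4 with a symbol, and 4009 of all models (36.9%). At most 1 link arose with each of 20 shuffled tables. That table gives no products, so no groups by function were formed and models without a symbol have no role stated.

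Members and lists were chosen with earlier results of these data known. Named members were, per comparison, those with the largest called changes (3 each way, 2 for the deletion) with at least 10 CPM and groups that do not overlap, the 5 most abundant, the outermost tested model per end, members with a symbol, runs, and models at the limit. Replicate numbers, checked by residual correlation, gave a sign of pairing only for the deletion in darkness with methionine (0.37, 0.14 and 0.47). The main fit used no pairing.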

Additional observations from a re-analysis of the deposited data

Results flagged for a closer look

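The response to methionine differed between light and darkness for these named members, as tested by the interaction in edgeR (the log2 fold change in light minus that in darkness). Where a group held few or no counts the fitted difference is no bound.

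In the wild type the difference was 10.93 for TrG1206C (SE 1.03, edgeR adjusted p = 3.33e-08; 12.98 on leaving out replicate 3 of light), 8.60 for TrB1967C (SE 3.11, edgeR adjusted p = 0.0271) and 8.59 for *cip2* (TrB1968W; SE 1.62, edgeR adjusted p = 0.000182; 10.79 on leaving out replicate 3 of light and 7.91 on leaving out replicate 1 of light with methionine). The call of TrB1967C was lost on leaving out replicate 2 or 3 of light with methionine (adjusted p = 0.132 and 0.129), and its value was 12.21 on leaving out replicate 3 of light, 9.26 on leaving out replicate 3 of darkness with methionine and 7.98 on leaving out replicate 2 of light. In light TrB1967C and *cip2* had at most 0.283 and 0.848 CPM in the wild type, and TrG1206C at most 12.4.

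Negative differences in the wild type were -9.62 for TrF1202W (SE 2.06, edgeR adjusted p = 0.000817), -5.48 for TrD0022W (SE 1.70, edgeR adjusted p = 0.0111) and -3.90 for TrA0027W (SE 0.79, edgeR adjusted p = 0.000363; -4.51 on leaving out replicate 2 of darkness). That of TrF1202W was lost on leaving out replicate 3 of darkness with methionine (-5.37, adjusted p = 0.969), the sole library of that group with a count, and was -11.65 on leaving out replicate 3 of darkness and -10.21 on leaving out replicate 2 of darkness with methionine. TrD0022W, at 0.327, 0.140 and 0.285 CPM in light with methionine against 7.45, 7.26 and 29.8 without, was -6.72 on leaving out replicate 2 of darkness and -4.50 on leaving out replicate 3 of light.

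In the mutant the difference was 13.51 for TrG1206C (14.61 on leaving out replicate 1 of light), 11.54 for TrG1195C (12.61 on leaving out replicate 1 of light and 10.91 on leaving out replicate 1 of light with methionine) and 10.63 for TrC1552C (8.08 on leaving out replicate 3 of light with methionine and 9.48 with the replicate block). It was -10.37 for TrC0021C, a call lost on leaving out replicate 1 of light, the sole light library with a count (adjusted p = 1.0), with -12.36 on leaving out replicate 1 of darkness. It was -4.10 for TrD1425W (TRIREDRAFT_112125) and -3.66 for TrD0022W. The last call was lost without 8 of the 12 libraries of its 4 groups in turn (adjusted p from 0.0505 to 0.0895), and its value was -5.07 on leaving out replicate 1 of darkness and -5.10 on leaving out replicate 3 of light with methionine.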

How the results depend on the processing

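The counts of members changed by methionine, by lighting and by their interaction stayed within 1.5 times under every alternative run: upper quartile scaling, no filter or a stricter one, the replicate block, only the groups compared, DESeq2, each library left out, and the 4 set-aside models kept in. Left-out libraries gave 226 to 236 and 206 to 225 members for methionine in the wild type in darkness and light, 238 to 243 and 225 to 235 in the mutant, 202 to 211 and 208 to 216 for light without methionine in the wild type and mutant, 108 to 117 and 115 to 134 with it, and 148 to 162 and 139 to 151 for the interactions.

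Counts for the deletion were small and moved. With only the groups compared they were 0 in light, 0 in darkness with methionine and 2 in light with methionine. DESeq2 called 16, 9 and 11 there, 3 in darkness, and 1 in darkness and 5 in light for the methionine by deletion interactions. Left-out libraries gave 0 to 1 in darkness, 1 to 15 in light, 1 to 5 and 1 to 9 with methionine in darkness and light, and 0 to 2 and 0 to 1 for those interactions. The replicate block was set by replicate number within each lighting, over all groups. With it 4 members were called for the deletion in darkness with methionine, and it moved no other count by over 1.5 times.

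With the 4 models kept in, the share of counts was 3.52% in the mutant and 3.26% in the wild type in darkness. With library sizes scaled by TMM it was 2.10% and 1.89% there, and 1.14% and 1.25% in darkness with methionine. Of the models within 25 kb 59.1% had counts enough to be tested, and 18 of the 47 others had no count in any library.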
